A study of Mus musculus with 16 samples.

Results

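Replicate cultures 3 and 4 of a mouse brown adipocyte line were set against replicate cultures 5 and 6 in 16 poly(A) RNA sequencing libraries, 8 in each set, which make up the whole series. Libraries were placed in a set by the replicate number in their labels, and each of the numbers 3 to 6 occurs once in each of 4 combinations of plasmid and treatment. The combinations were empty sgRNA vector without stimulation, empty sgRNA vector with 1 µM isoproterenol for 24 h, sgRNA plasmids against the long noncoding RNA Gm15551 without stimulation, and the same sgRNA plasmids with isoproterenol. The cells were wt1-SAM, immortalised preadipocytes of brown fat with a stably integrated CRISPRa SAM activator, a protein complex that a guide RNA brings to a promoter to raise transcription. All cultures received the same differentiation medium with rosiglitazone, T3, dexamethasone, insulin, indomethacin and IBMX, were reverse transfected with 250 ng plasmid on day 4 and were harvested on day 7. By their labels both sets are thus cultures of a single line, with no difference in genotype named. Whether all cultures shared a single genotype was not tested. The labels say nothing of when each culture was grown, thawed, passaged or sequenced. The grouping of 3 with 4 and of 5 with 6 was chosen by the expression values of these libraries over all genes, so differences between the sets are given as a description without a test. Tests were kept for the responses to isoproterenol and to the sgRNA plasmids, which the grouping did not use. Their p-values rest on the spread between libraries of the same combination and set. In the main fit, which does not pair libraries by number, this spread includes general differences between cultures of a set. A fit with a block for the replicate number takes these differences out and is given beside it.

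Brown adipocytes form from fibroblast-like preadipocytes. During differentiation PPARG and the C/EBP factors switch on genes of lipid storage and thermogenesis, while fibrillar collagens and other matrix genes of the progenitor are turned down. Isoproterenol activates β-adrenergic receptors, raises cAMP and induces Ucp1, the uncoupling protein that lets brown fat mitochondria make heat. Interferon-stimulated genes are antiviral effectors and antigen-presentation genes switched on through STAT and IRF factors, in adipocytes as in most other cells.

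Library totals ran from 9053521 to 16546187 estimated counts. A single ribosomal RNA gene took 11.72 to 41.64% of the counts in replicates 3 and 4 and 19.73 to 51.76% in replicates 5 and 6. It was over 40% in 3 libraries, which stood apart for this reason: stimulated empty vector replicate 3 (41.64%), unstimulated empty vector replicate 5 (47.28%) and stimulated empty vector replicate 5 (51.76%). Values without them are given beside results below that they moved or in the last section. Markers of adipocytes in general were high: Fabp4, the fatty acid binding protein of adipocytes, ranged from 8210 to 19500 counts per 1000000 counts (CPM) over the 16 libraries and Pparg from 115 to 153 CPM. Of the genes that mark brown fat, Elovl3, a fatty acid elongase (158 to 443 CPM), and the coactivator gene Ppargc1a (30.5 to 88.7 CPM) were also well above the floor of 3 counts. Others lay near it, with Ucp1 at 0 to 0.979 CPM in unstimulated libraries, Cox8b, a subunit of cytochrome c oxidase, at 0.111 to 1.95 CPM and the brown fat regulator Prdm16 at 0.424 to 2.17 CPM. Markers of other cells were scarce in both sets. Their summed levels are per 1000000 counts without ribosomal RNA, unlike the CPM of single genes. The summed level of 10 macrophage markers was 13.9 to 39.3 CPM in replicates 3 and 4 and 12.5 to 41.2 CPM in replicates 5 and 6, nearly all of it Cd68 and Cd14, which other cells also express, whereas Adgre1 had 1 count in all. The summed levels of 5 further marker lists were between 0 and 7.80 CPM in each library: endothelial (3.32 to 6.50 CPM in replicates 3 and 4 and 5.63 to 7.80 CPM in replicates 5 and 6), skeletal muscle (2.75 to 5.11 and 1.38 to 5.76 CPM), epithelial and mesothelial (1.20 to 4.16 and 0.621 to 5.72 CPM), lymphoid and blood (0 to 0.465 and 0 to 0.803 CPM) and Schwann cell (2.29 to 4.14 and 3.63 to 5.67 CPM). Of their defining genes Emcn, Myod1 and Epcam were at 0 in all libraries, whereas Pecam1 (246 and 210 counts summed over the sets), Acta1 (254 and 179) and Msln (134 and 110) were detected. In the Schwann cell list, Mbp, which encodes a myelin protein, was at 0.636 ± 0.145 CPM in replicates 3 and 4 and 1.93 ± 0.157 CPM in replicates 5 and 6 (SD, n = 8 each). Gm15551, the targeted gene, lay between 0 and 3.92 CPM in replicates 3 and 4 and between 0 and 3.34 CPM in replicates 5 and 6.

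The sets differed over a broad range of genes, and the members of the second set also differed from each other. Of 13150 genes that passed a filter on low counts, 1164 were separated with higher levels in replicates 3 and 4 (8.85% of genes tested) and 1058 with higher levels in replicates 5 and 6 (8.05%), where separated means that in each of the 4 combinations both libraries of one set lay above both of the other. With the further condition of a log2 difference over 1, 91 genes were higher in replicates 3 and 4 (0.692%) and 255 in replicates 5 and 6 (1.94%). Of these, 65 of the 91 and 158 of the 255 reached the count filter in both sets, and the others entered only through the set in which they are high. Some members of the gene lists below likewise did not reach it in both sets, and the counts and medians of the lists include them. All log2 differences between the sets are replicates 5 and 6 minus replicates 3 and 4, so positive values are higher in replicates 5 and 6. Their SD is taken over the 4 combinations, which hold the same cultures, and does not measure the spread between cultures. The SD of CPM values, with n = 8 for a set or n = 4 for a number, runs over libraries of all 4 combinations. It thus includes the effects of plasmid and treatment, and n counts libraries and not cultures. The median over all genes tested was 0.01. In 56 of the 91 genes and 156 of the 255, the ranges of the sets did not overlap over all 16 libraries. These genes had been selected by their separation, so the 2 counts only describe them and are no further support for the grouping. Without 1 replicate number the condition is easier to meet, since 1 library of a set in place of 2 has to part in each combination, and the counts were 138, 147 and 195 genes higher in replicates 3 and 4 without replicates 3, 5 and 6 and 480 and 595 genes higher in replicates 5 and 6 without replicates 3 and 5. Likewise, without the 3 libraries over 40% ribosomal RNA, 421 genes were higher in replicates 5 and 6.

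Cultures 3 and 4 were more alike than cultures 5 and 6. After subtraction of the combination means, libraries of the same number correlated with each other across genes with r between 0.224 and 0.613. Libraries of number 3 correlated with libraries of number 4 with a median r of 0.298 (12 pairs, 0.0586 to 0.516). For numbers 5 and 6 the median r was 0.0324 (12 pairs, −0.0678 to 0.0955), so the ranges overlapped. Between libraries of different sets the median r was −0.302 (48 pairs). These coefficients are across genes, which are not independent replicates. Among 9445 genes with a mean of at least 5 CPM, 160 differed by more than 1 on the log2 scale between the sets, 39 between numbers 3 and 4, and 180 between numbers 5 and 6. The distance between cultures 5 and 6 was thus of the size of the distance between the sets. Of the 255 genes higher in replicates 5 and 6, replicate 6 lay further from the first set by more than 0.5 in 117, replicate 5 in 24, and both were within 0.5 of each other in 114. Differences below are therefore given for each number as well as for the sets.

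**Figure D1:**
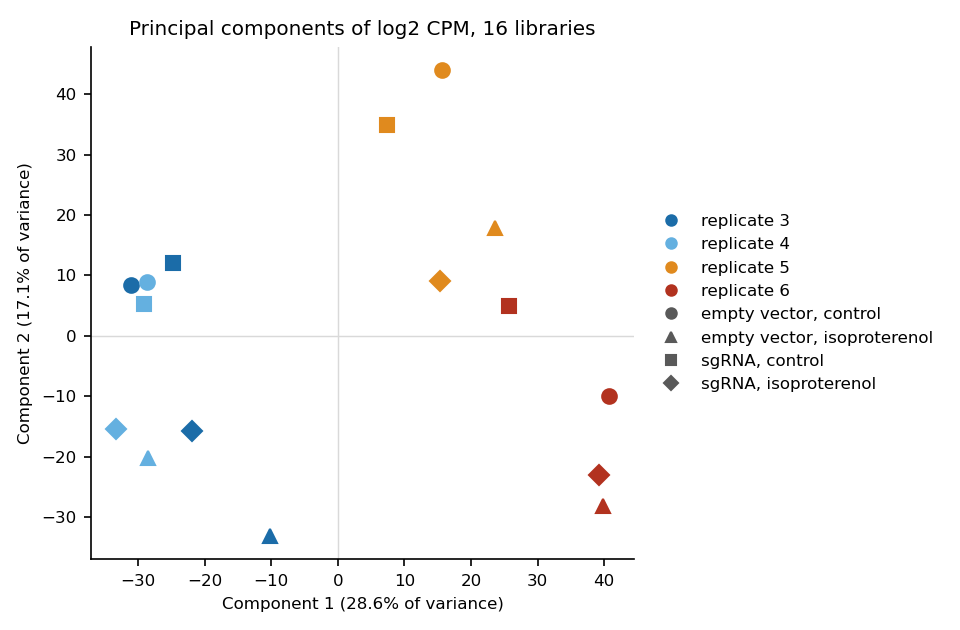
First and second principal component of log2 CPM, 28.6% and 17.1% of the variance, with 1 point for each of the 16 libraries, coloured by replicate number and shaped by combination of plasmid and treatment. Replicates 3 and 4 lie at negative values of the first component (−33.33 to −10.12) and replicates 5 and 6 at positive values (7.33 to 40.78), and replicate 5 reaches higher on the second component than replicate 6.

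**Figure D2:**
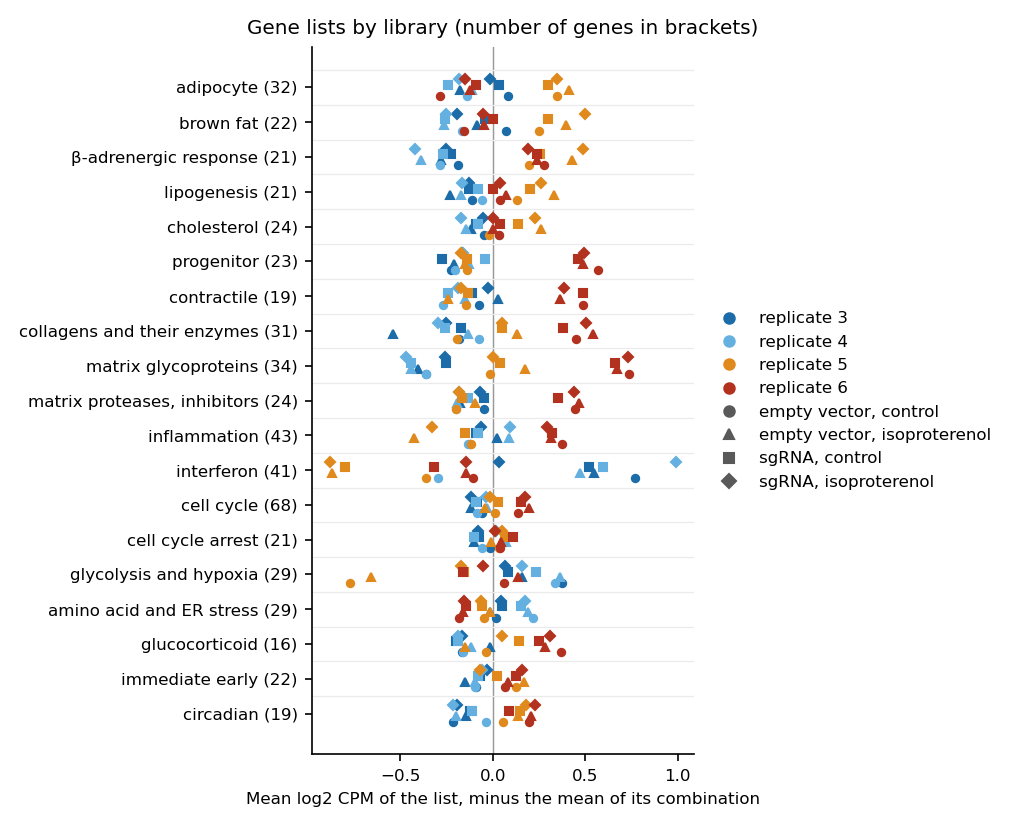
Mean log2 CPM of each gene list in each of the 16 libraries, minus the mean of its combination, with 1 row for each of 19 lists, colours for the replicate number and shapes for the combination. Before centring, the matrix glycoprotein list is higher in replicates 5 and 6 (3.60 to 4.40) than in replicates 3 and 4 (3.12 to 3.34), the interferon list is lowest in replicate 5, and the adipocyte list is high in replicate 5 while replicate 6 lies with replicates 3 and 4.

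Among the gene lists and with all libraries, the matrix glycoproteins had the largest median difference on the side of replicates 5 and 6. Without replicate 6 the brown fat list had a larger one (0.55). Of 34 tested matrix glycoprotein and proteoglycan genes, 29 reached the count filter in both sets. Of all 34, 28 were higher in replicates 5 and 6, and 11 were separated in this direction (32.4%, against 8.05% of all genes tested). Of the 11, 8 passed a log2 difference of 1 (23.5% of the 34, against 1.94% of all genes tested). In the opposite direction 1 gene passed it, Nid2 (2.94%, against 0.692%). The median difference of the 34 was 0.71 (lowest and highest combination 0.49 and 0.79), against 0.01 for all genes, and it was 0.38 without replicate 6. Since these are bulk samples, fewer cells of a type and less RNA per cell cannot be told apart. Postn, which encodes the matricellular protein periostin, ranged from 0.775 to 2.38 CPM with a median of 1.17 in replicates 3 and 4 and from 11.5 to 74.5 CPM with a median of 28.7 in replicates 5 and 6. By number, its mean was 1.88 ± 0.466, 0.878 ± 0.0691, 14.6 ± 2.39 and 57.8 ± 14.4 CPM for 3, 4, 5 and 6 (SD, n = 4 each). The sets did not overlap, all 4 libraries of replicate 6 were above all 4 of replicate 5, and the difference was the largest of those named here at 4.75 ± 0.15 (3.44 without replicate 6).

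The fibrillar collagen type I chains followed the same order of cultures. Col1a1 ran from 3.40 to 4.83 CPM (median 4.09) in replicates 3 and 4 and from 8.81 to 36.7 CPM (median 20.6) in replicates 5 and 6. Col1a2 ran from 1.67 to 7.49 CPM (median 5.17) and from 7.29 to 44.8 CPM (median 21.1). Replicate 5 held 10.8 ± 1.97 CPM of Col1a1 and replicate 6 held 31.6 ± 3.76 CPM (SD, n = 4 each), so that both were above the first set and replicate 6 was well above replicate 5. The set differences were 2.38 ± 0.22 for Col1a1 (1.38 without replicate 6) and 2.43 ± 0.44 for Col1a2 (1.33 without replicate 6). Of 31 collagen genes and collagen-modifying enzymes, 28 reached the count filter in both sets. Among all 31, 6 were separated with higher levels in replicates 5 and 6 (19.4%, against 8.05% of all genes tested). In the other direction 1 was separated (3.23%, against 8.85%), Plod1, a lysyl hydroxylase (−0.47). The median difference was 0.36, ranging from 0.02 in unstimulated empty vector cultures to 0.66 in stimulated ones. The abundant type IV and type VI chains of the basement membrane and the pericellular matrix differed less, with 0.41 for Col4a1 and 0.36 for Col6a3, and that of Col4a1 was −0.02 without replicate 5, 0.75 without replicate 6 and 0.18 without the 3 libraries over 40% ribosomal RNA. Without those libraries, 2 of which are stimulated empty vector cultures, the median of the collagen list was 0.19.

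Several matrix genes were high mainly in replicate 6. Lox, the enzyme that crosslinks collagen and elastin, had a mean of 12.6 ± 1.75, 9.81 ± 1.81 and 17.8 ± 2.05 CPM in replicates 3, 4 and 5 and of 78.3 ± 11.2 CPM in replicate 6 (SD, n = 4 each). It was not separated in each combination, and its difference of 2.13 was 0.70 without replicate 6. Fbn1 (fibrillin, the core of microfibrils) showed the same shape, with 1.72, 1.51, 2.38 and 10.1 CPM for the numbers 3 to 6 (a difference of 1.98, or 0.59 without replicate 6). Fn1, which encodes fibronectin, was separated but close to the first set in unstimulated replicate 5 (10.8 and 13.8 CPM, against 9.98 to 15.7 CPM in replicates 3 and 4), and its difference of 1.55 was 0.60 without replicate 6.

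Other matrix genes were already high in replicate 5. Bgn (biglycan, a small proteoglycan) was at 28.7 ± 4.74 and 17.6 ± 3.41 CPM in replicates 3 and 4, 56.1 ± 14.9 CPM in replicate 5 and 117 ± 15.5 CPM in replicate 6 (SD, n = 4 each), a difference of 1.92 ± 0.08 (1.27 without replicate 6). Vcan, which encodes the large proteoglycan versican, ran from 101 to 208 CPM in replicates 3 and 4 and from 220 to 940 CPM in replicates 5 and 6, so the sets did not overlap (1.79 ± 0.11, or 1.12 without replicate 6). Sparc, the most abundant gene of the list and a collagen-binding glycoprotein, did not share the pattern and had a difference of −0.10 (−0.175 without the 3 libraries over 40% ribosomal RNA). Of 24 matrix-degrading enzymes and their inhibitors, Adamts2, the protease that trims procollagen ends (2.87, or 1.54 without replicate 6), and Timp2, a metalloproteinase inhibitor (1.44, or 0.69), were the separated genes on the side of replicates 5 and 6, a share of 8.33% that is close to the 8.05% of all genes tested. The list as a whole had a median of 0.22, which became −0.20 without replicate 6 and 0.08 without those libraries.

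**Figure D3:**
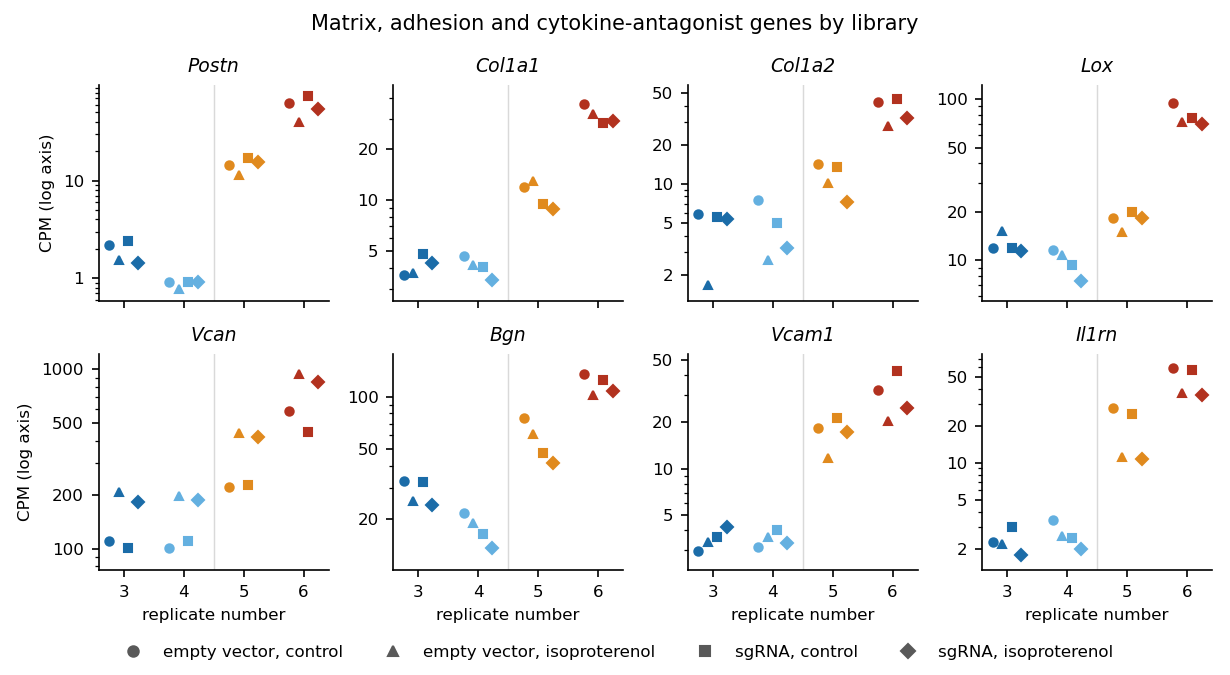
CPM on a log axis of 8 matrix, adhesion and cytokine-antagonist genes in each of the 16 libraries, against replicate number, with shapes for plasmid and treatment. Postn, Col1a1, Bgn, Vcan, Vcam1 and Il1rn have no overlap between the sets, whereas Lox is high in replicate 6 (69.7 to 94.6 CPM) and in replicate 5 (15.0 to 19.9 CPM) is close to replicates 3 and 4 (7.47 to 15.2 CPM).

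Progenitor markers gave a mixed picture. Of 23 tested genes used to mark adipose progenitors, 19 reached the count filter in both sets. Of all 23, 17 were higher in replicates 5 and 6 and 3 were separated (13%, against 8.05% of all genes tested). The median was 0.36, or 0.035 without replicate 6. Cd24a, a surface marker of early progenitors, was at 5.87 ± 1.83 CPM in replicates 3 and 4 and 20.7 ± 11.1 CPM in replicates 5 and 6 (SD, n = 8 each), and the receptor gene Pdgfrb at 1.87 ± 0.403 and 6.28 ± 3.00 CPM. By number, Pdgfrb had 1.75, 2.00, 3.84 and 8.73 CPM. Without replicate 6 the differences were 0.88 for Cd24a and 0.97 for Pdgfrb, against 1.87 and 1.72 with it. Ly6a, which encodes the progenitor marker SCA-1, separated cultures 5 and 6 from each other rather than the sets, with 23.2 ± 14.4 and 33.8 ± 19.9 CPM in replicates 3 and 4, 7.30 ± 3.92 CPM in replicate 5 and 56.6 ± 20.7 CPM in replicate 6 (SD, n = 4 each). Prrx1, a mesenchymal transcription factor, overlapped fully between the sets (17.2 to 43.3 and 17.2 to 45.7 CPM).

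Of 19 contractile and smooth muscle genes, none was separated with higher levels in replicates 5 and 6 (0%, against 8.05% of all genes tested). In the other direction 1 was separated (5.26%, against 8.85%). Counts this small do not set the list apart from all genes. Acta2, the smooth muscle actin that marks myofibroblasts, was highest in replicate 6 (21.7 ± 6.20 CPM) but in replicate 5 (5.63 ± 2.49 CPM) overlapped replicate 3 (4.71 ± 0.352 CPM; SD, n = 4 each), with a difference of 2.11, or 0.78 without replicate 6. The intermediate filament gene Des went the other way, with 7.98 to 13.3 CPM in replicates 3 and 4 and 2.99 to 7.51 CPM in replicates 5 and 6 and no overlap (−1.17 ± 0.42).

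Interferon-stimulated genes formed the clearest group on the side of replicates 3 and 4. Of 41 tested members of this list, 36 reached the count filter in both sets. Of all 41, 37 were lower in replicates 5 and 6, and 15 were separated in this direction (36.6%, against 8.85% of all genes tested). Of the 15, 9 passed a log2 difference of 1 (22% of the 41, against 0.692% of all genes tested). No member was separated in the opposite direction. The median difference of the 41 was −0.74 (lowest and highest combination −1.0 and −0.44). The 9 genes were Rtp4, Isg15, Mx2, Ifi44, Psmb8, Bst2, Xaf1, Igtp and Psmb9, which include antiviral effectors and subunits of the immunoproteasome. Rtp4, a negative regulator of this response, ran from 5.77 to 29.9 CPM (median 18.6) in replicates 3 and 4 and from 1.02 to 3.53 CPM (median 2.88) in replicates 5 and 6, without overlap (−2.81 ± 0.47). Isg15, a ubiquitin-like modifier, ran from 2.04 to 10.8 CPM (median 5.97) and from 0.4 to 1.85 CPM (median 0.874), again without overlap (−2.56 ± 0.68).

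Replicate 6 lay between replicate 5 and the first set for many of these genes. Rtp4 had a mean of 1.79 ± 0.858 CPM in replicate 5 and 3.24 ± 0.351 CPM in replicate 6, and Bst2, the membrane protein tetherin, 11.3 ± 2.38 and 16.2 ± 2.40 CPM, against 49.5 ± 17.7 and 49.9 ± 16.1 CPM in replicates 3 and 4 (SD, n = 4 each). The list median was −1.28 without replicate 6 and −0.64 without replicate 5. The levels were not even within the first set, since in replicate 4 the unstimulated empty vector library held 6.31 CPM of Rtp4 and 0.723 CPM of Mx2 while the unstimulated sgRNA library held 29.9 and 6.39 CPM. Abundant members differed less: B2m, the light chain of MHC class I, was at 531 to 924 CPM in replicates 3 and 4 and 352 to 493 CPM in replicates 5 and 6 (−0.72 ± 0.25). Ifi27, an interferon-inducible gene, overlapped between the sets, with 201 to 346 and 174 to 317 CPM and a difference of −0.285 ± 0.187 (SD over the 4 combinations).

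Because these genes are known targets of IRF and STAT factors, their promoters were searched for the core of the interferon-stimulated response element, spelled GAAA, any 2 bases and GAAA, on both strands of the 250 bases before and 50 bases after each start site (RefSeq, GRCm38.p6). Stretches from genes that were separated follow with the matches in capitals, overlapping matches run together, 5′ to 3′ along the gene. The Isg15 stretch lies at chr4:156200830-156200941 on the minus strand and holds 3 overlapping matches that begin 66, 72 and 78 bases before the start. The Bst2 stretch lies at chr8:71537542-71537647 on the minus strand with matches 124 and 130 bases before the start, the Igtp stretch at chr11:58199477-58199555 on the plus strand with 1 match at 34 bases, and the B2m stretch at chr2:122147503-122147602 on the plus strand with 1 match at 139 bases.
Isg15: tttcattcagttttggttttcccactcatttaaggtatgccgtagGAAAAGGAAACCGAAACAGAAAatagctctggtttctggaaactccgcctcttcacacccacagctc
Bst2: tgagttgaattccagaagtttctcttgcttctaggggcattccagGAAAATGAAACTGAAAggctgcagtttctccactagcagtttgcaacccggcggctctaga
Igtp: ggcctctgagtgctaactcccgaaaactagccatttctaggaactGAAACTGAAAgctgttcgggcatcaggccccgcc
B2m: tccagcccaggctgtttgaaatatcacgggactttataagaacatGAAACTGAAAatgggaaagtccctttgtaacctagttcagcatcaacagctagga

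The match was common in the list whether or not a gene differed between the sets. It was present in 17 of 31 interferon-stimulated genes with a promoter in the table (54.8%), against 350 of 9575 among all genes tested (3.66%) and 1131 of 32851 promoters in all (3.44%). Within the list it was present in 5 of 12 separated genes (41.7%) and in 12 of 19 others (63.2%). Among the genes called on either side it was as rare as in general, with 3 of 66 (4.55%) for those higher in replicates 3 and 4 and 8 of 156 (5.13%) for those higher in replicates 5 and 6. A match describes letters in a window and not a bound site.

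**Figure D4:**
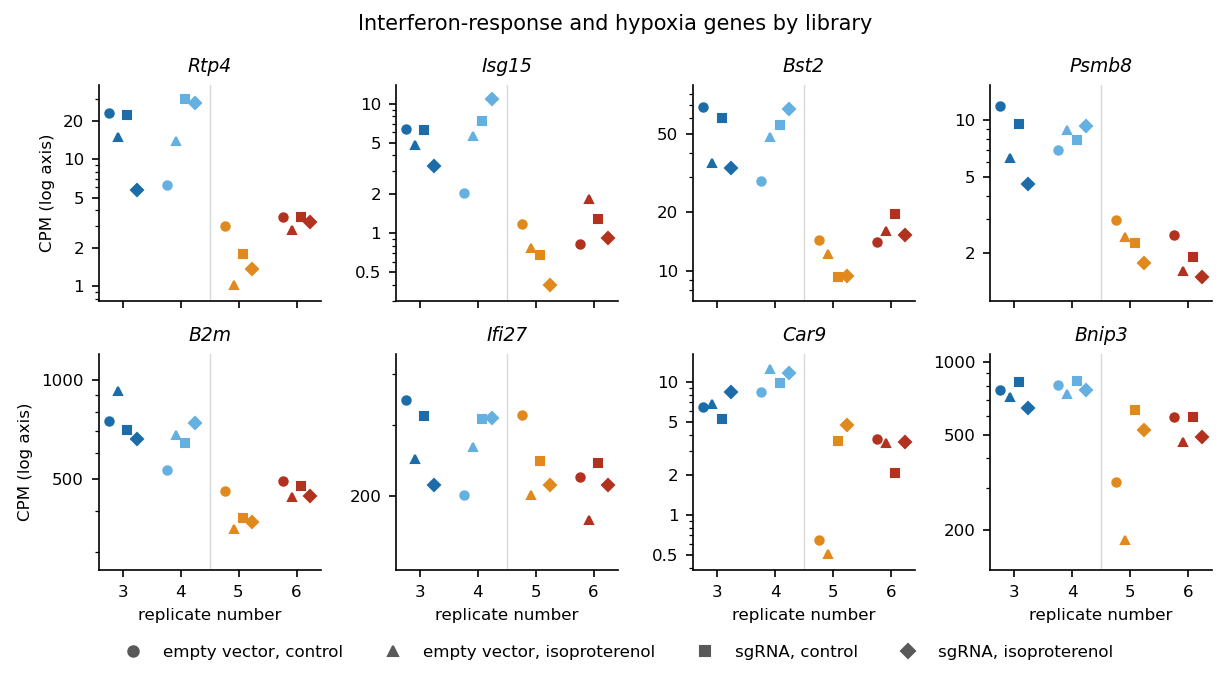
CPM on a log axis of 6 interferon-stimulated genes (Rtp4, Isg15, Bst2, Psmb8, B2m and Ifi27) and of the hypoxia genes Car9 and Bnip3 in each of the 16 libraries, against replicate number, with shapes for plasmid and treatment. Rtp4, Isg15, Bst2, Psmb8 and B2m are higher in all libraries of replicates 3 and 4, Ifi27 overlaps, and the empty vector libraries of replicate 5 are the lowest points for Car9 (0.649 and 0.509 CPM) and Bnip3 (316 and 181 CPM).

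Genes of inflammation lay on both sides. Of 43 tested, 22 were higher in replicates 5 and 6 and 21 in replicates 3 and 4. In the same order 5 and 6 were separated (11.6 and 14%, against 8.05 and 8.85% of all genes tested). Past a log2 difference of 1 were 5 and 4 (11.6 and 9.3%, against 1.94 and 0.692%). The median was 0.01 (−0.31 without replicate 6 and −0.01 without the 3 libraries over 40% ribosomal RNA). On the side of replicates 5 and 6, Il1rn, the natural antagonist of the interleukin-1 receptor, ran from 1.78 to 3.42 CPM in replicates 3 and 4 and from 10.8 to 59.3 CPM in replicates 5 and 6 (3.72 ± 0.28, or 2.85 without replicate 6). Vcam1, a leukocyte adhesion molecule, ran from 2.95 to 4.18 CPM and from 11.8 to 42.4 CPM (2.72 ± 0.43). Steap4 (a metalloreductase, 1.42), C4b (complement, 1.26, or 0.47 without replicate 6) and Cp (ceruloplasmin, 1.25) also passed. The acute phase gene Serpina3n, with a difference of 2.46, was high only in replicate 6, where it had 93.6 ± 53.7 CPM, against 7.64 ± 3.72, 11.6 ± 6.03 and 12.2 ± 1.78 CPM in replicates 3, 4 and 5 (SD, n = 4 each), and its difference was 0.48 without replicate 6.

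On the side of replicates 3 and 4, the 4 inflammation genes were Slpi, a secreted protease inhibitor, Cfb, a factor of the alternative complement pathway, the monocyte chemokine gene Ccl2 and Tnfaip6, a hyaluronan-binding protein. Cfb was at 30.3 ± 12.4 CPM in replicates 3 and 4 and 10.5 ± 4.6 CPM in replicates 5 and 6 (SD, n = 8 each; −1.55 ± 0.22), and Ccl2 at 38.6 ± 12.2 and 14.4 ± 6.75 CPM (−1.48 ± 0.60). Ranges of Cfb overlapped by a small margin over all 16 libraries (15.5 to 51.3 and 4.52 to 16.6 CPM), although it was separated in each combination. The most abundant genes of the list did not part, with Lcn2 at 136 to 542 and 217 to 501 CPM.

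The differentiation program overlapped between the sets, and its members went in both directions. Of 32 adipocyte genes, 18 were higher in replicates 5 and 6 and 14 in replicates 3 and 4. In the same order 5 and 1 were separated (15.6 and 3.12%, against 8.05 and 8.85% of all genes tested). The median was 0.12. The sign of that median was not stable, at −0.23 without replicate 5, 0.37 without replicate 6 and −0.10 without the 3 libraries over 40% ribosomal RNA. Fabp4 ran from 14900 to 19500 CPM in replicates 3 and 4 and from 8210 to 16600 CPM in replicates 5 and 6 (−0.50 ± 0.24, or −0.32 without replicate 6). Pparg, the master regulator of adipogenesis, was at 141 ± 9.07 and 127 ± 7.78 CPM (SD, n = 8 each; −0.16, or −0.10 without replicate 3), and Adipoq, which encodes the hormone adiponectin, at 357 to 1020 and 249 to 788 CPM (−0.51, or −0.29 without replicate 3). In contrast, Acvr1c, the activin receptor ALK7 of mature adipocytes (2.34), and Thrsp, a regulator of lipogenesis (1.38), were higher in replicates 5 and 6. For both, replicate 5 was the higher culture: Acvr1c had 1.75, 0.899, 8.58 and 4.88 CPM and Thrsp 22.8, 17, 68.2 and 38.4 CPM for the numbers 3 to 6, and the difference of Thrsp was 0.91 without replicate 5.

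Brown fat and lipid synthesis genes were likewise highest in replicate 5. Of 22 tested brown fat genes, 19 reached the count filter in both sets. Of all 22, 16 were higher in replicates 5 and 6 and 5 were separated (22.7%, against 8.05% of all genes tested). The median was 0.30, or −0.07 without replicate 5 and 0.55 without replicate 6. It was 0.15 when a covariate for the share of ribosomal RNA was fitted and 0.18 without stimulated empty vector replicate 5. Among the 5 genes were Cidea, a lipid droplet protein (1.36 ± 0.57, or 0.74 without replicate 5), and Ppara, a regulator of fatty acid oxidation (1.07 ± 0.31, or 0.61). Ppara had 8.57 ± 0.316, 6.87 ± 1.37, 20.9 ± 4.19 and 11.8 ± 1.93 CPM in replicates 3, 4, 5 and 6 (SD, n = 4 each), so both later numbers were above the first set. Ucp1 overlapped, with a median of 2.68 CPM (0.263 to 10.0) in replicates 3 and 4 and 2.45 CPM (0 to 15.5) in replicates 5 and 6. Of 21 lipogenic genes, 17 were higher in replicates 5 and 6 and 5 were separated (23.8%, against 8.05% of all genes tested). Among the 5 were Fasn, the fatty acid synthase (0.745), Acaca, which supplies it with malonyl-CoA (0.52), and Pnpla3, a lipid droplet acyltransferase and lipase (2.32, on levels of 0 to 4.12 CPM). Fasn was highest in replicate 5, with 168, 152, 305 and 213 CPM for the numbers 3 to 6. Of 24 cholesterol synthesis genes, 18 were higher in replicates 5 and 6 and 5 were separated (20.8%, against 8.05% of all genes tested). None exceeded a difference of 1, with Cyp51, a sterol demethylase, at 0.59. The median was 0.185, or 0.061 without replicate 5.

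Proliferation genes were slightly higher in replicates 5 and 6. Of 68 cell cycle genes, 48 were higher in that set. In this direction 13 were separated (19.1%, against 8.05% of all genes tested) and none in the other. The median was 0.14 (0.055 without replicate 6 and 0.22 without replicate 5), and none of the genes reached a log2 difference of 1. The widest differences were those of the mitotic kinesin Kif20a (0.80 ± 0.06, or 0.51 without replicate 6), the nuclear lamin Lmnb1 (0.74), and the cell cycle transcription factors E2f7 and Foxm1 (0.65 each). Kif20a ran from 42.8 to 49.9 CPM in replicates 3 and 4 and from 62.2 to 104 CPM in replicates 5 and 6, with 66.3 ± 3.86 CPM in replicate 5 and 96.4 ± 5.11 CPM in replicate 6 (SD, n = 4 each). Pcna, the replication clamp and the most abundant gene of the list, overlapped between the sets, with 485 ± 39.6 and 477 ± 30.9 CPM (SD, n = 8 each). Among 21 inhibitors of the cycle and p53 targets, Trp53inp1 was higher in replicates 5 and 6 (43.4 to 52.3 against 81.8 to 149 CPM, 1.18 ± 0.28) and Gadd45a, a damage-response gene, in replicates 3 and 4 (12.9 to 23.7 against 6.87 to 10.5 CPM, −0.999). The cyclin-dependent kinase inhibitor Cdkn1a overlapped, with 209 to 285 and 223 to 313 CPM.

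Genes of hypoxia and glycolysis were higher in replicates 3 and 4. Of 29 tested, 27 were lower in replicates 5 and 6 and 10 were separated in this direction (34.5%, against 8.85% of all genes tested). The median was −0.32. It ran from −0.60 to −0.16 over the combinations and was −0.515 without replicate 6, −0.22 without replicate 5, −0.22 without the 3 libraries over 40% ribosomal RNA and −0.16 when a covariate for the share of ribosomal RNA was fitted. Car9, the carbonic anhydrase induced by low oxygen, was the gene past a log2 difference of 1, with 5.25 to 12.5 CPM (median 8.42) in replicates 3 and 4 and 0.509 to 4.73 CPM (median 3.49) in replicates 5 and 6 (−1.62 ± 0.41, or −1.37 without those libraries). Slc2a1, the glucose transporter GLUT1, was at 113 ± 9.28 and 68.8 ± 22.4 CPM (SD, n = 8 each; −0.74, or −0.49 without replicate 5). Bnip3, a mitophagy receptor, had 643 to 836 CPM in replicates 3 and 4 and 181 to 631 CPM in replicates 5 and 6. Both empty vector libraries of replicate 5, with 47.28 and 51.76% ribosomal RNA, were the lowest of the 16 for Bnip3, Car9, Ldha (787 and 864 CPM) and Pgk1 (719 and 878 CPM). Without the 3 libraries the differences were −0.49 for Bnip3, −0.44 for Ldha and −0.18 for Pgk1, against −0.72, −0.61 and −0.38 with them, and with that covariate they were −0.48, −0.39 and −0.14, and −1.13 for Car9. Of 29 stress response genes, 7 were separated with higher levels in replicates 3 and 4 (24.1%, against 8.85% of all genes tested) and none in the other direction. Among the 7 were Nupr1 (−0.73), Xbp1, a factor of the unfolded protein response (−0.66), and Psat1, an enzyme of serine synthesis (−0.48).

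Of 16 genes in the glucocorticoid list, 14 were higher in replicates 5 and 6 and 7 were separated in this direction (43.8%, against 8.05% of all genes tested). Of the 7, 1 was past a log2 difference of 1 (6.25% of the 16, against 1.94% of all genes tested). The list median was 0.49. The gene separated on the other side was Hsd11b1, which regenerates active corticosterone, at 171 ± 16.5 CPM in replicates 3 and 4 and 38.9 ± 9.74 CPM in replicates 5 and 6 (SD, n = 8 each), with ranges of 143 to 190 and 22.3 to 50 CPM that were far apart (−2.15 ± 0.21). Fkbp5, a co-chaperone of the receptor and one of its best known targets, was at 62.2 ± 14.4 and 120 ± 30.6 CPM (0.94 ± 0.13), Tsc22d3, which encodes the mediator GILZ, at 44.7 ± 8.74 and 77.0 ± 15.7 CPM (0.79 ± 0.13, or 0.52 without replicate 6), and Errfi1, an inhibitor of EGF receptor signalling, at 22.7 ± 2.57 and 60.2 ± 20.1 CPM (1.41 ± 0.17, or 0.92 without replicate 6; SD, n = 8 each). Fkbp5 hardly depended on a single culture, with 62.3, 62.0, 122 and 118 CPM for the numbers 3 to 6. Abundant members of the list overlapped between the sets, the metallothionein gene Mt1 with 451 to 1140 and 532 to 1230 CPM (0.17), Mt2 with 233 to 610 and 234 to 721 CPM (0.165), and Angptl4, a lipase inhibitor, with 183 to 231 and 152 to 227 CPM (−0.15). The mean of Mt1 was highest in replicate 6 (1010 CPM) and lowest in replicate 5 (612 CPM), as was that of Mt2 (569 and 275 CPM). Of 19 circadian genes, 17 reached the count filter in both sets. Of all 19, 5 were separated, all higher in replicates 5 and 6 (26.3%, against 8.05% of all genes tested). Among the 5 were the output factors Hlf (2.17, on levels of 0 to 1.72 CPM) and Tef (0.46) and the clock gene Per1 (0.51).

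Among 21 targets and components of β-adrenergic signalling, 4 were separated, all higher in replicates 5 and 6 (19%, against 8.05% of all genes tested). The median was 0.51, and 17 of the 21 reached the count filter in both sets. Rgs2, a brake on G protein signalling, ran from 0 to 0.622 CPM in replicates 3 and 4 and from 2.96 to 7.69 CPM in replicates 5 and 6 (3.52 ± 1.08). The phosphodiesterase genes Pde3b, which degrades cAMP downstream of insulin (1.65 ± 0.54), and Pde4b (1.07 ± 0.20) were the others past 1.

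The remaining genes with wide differences belong to no single list. Sptlc3, a subunit of serine palmitoyltransferase, the first enzyme of sphingolipid synthesis, ran from 9.26 to 22.8 CPM in replicates 3 and 4 and from 164 to 334 CPM in replicates 5 and 6 (3.84 ± 0.24), and unlike Postn, Col1a1 and Lox was higher in replicate 5 (277 ± 50.7 CPM) than in replicate 6 (183 ± 17.4 CPM; SD, n = 4 each). Aldh1a1, a retinaldehyde dehydrogenase, was at 0.841 ± 0.490 CPM in replicates 3 and 4 (SD, n = 8), 4.00 ± 1.49 CPM in replicate 5 and 18 ± 8.35 CPM in replicate 6 (SD, n = 4 each), a difference of 3.78, or 2.34 without replicate 6. Prlr, the prolactin receptor (2.62), Fst, the activin antagonist follistatin (2.59), and Npr3, the clearance receptor for natriuretic peptides (2.33), were also higher in replicates 5 and 6. Npr3 was highest in replicate 6, with 2.09, 1.57, 4.56 and 13.1 CPM for the numbers 3 to 6. Abcd2, a peroxisomal fatty acid transporter, was higher in replicates 3 and 4, at 20.9 to 36.3 CPM against 4.71 to 13.4 CPM (−1.77 ± 0.16), as was the antigen-presentation gene H2-DMb1 (13.4 to 18.2 against 3.44 to 5.31 CPM, −1.81 ± 0.27). Called genes were of low abundance, with a median of 3.67 CPM for those higher in replicates 3 and 4 and 2.92 CPM for those higher in replicates 5 and 6, against 15.9 CPM for all genes tested. Values near the bound of 1 were 1.00 for Tnfrsf23, Tmem45b and Sox4 on the inside, and −0.999 for Gadd45a and 0.99 for Foxn3 on the outside.

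The difference between the sets also had a chromosomal component. Genes with a mean of at least 5 CPM had a median difference of −0.02 over the genome, and 47.3% of them were higher in replicates 5 and 6. On chromosome 18 the median of 226 genes was 0.35 and 92.9% of them were higher in replicates 5 and 6. On chromosome 13 the median of 363 genes was 0.28 (84.6% higher), and on chromosome 12 that of 328 genes was 0.26 (87.2% higher). Chromosomes 8, 7 and 16 lay on the other side with medians of −0.15, −0.15 and −0.13 and 29.1, 30.9 and 32.8% of genes higher in replicates 5 and 6. The medians of the other 14 chromosomes were between −0.058 and 0.032.

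The shifts of chromosomes 18, 13 and 12 were present along their length and in each combination. When each chromosome was cut into 10 stretches of equal gene number, all 10 medians were above 0 on chromosomes 18 (0.28 to 0.49), 13 (0.14 to 0.61) and 12 (0.20 to 0.33). Over the 4 combinations the median ran from 0.35 to 0.37 on chromosome 18, from 0.20 to 0.30 on chromosome 13 and from 0.24 to 0.29 on chromosome 12. Both cultures of the second set carried the shift, in replicate 6 more than in replicate 5: relative to replicates 3 and 4, chromosome 18 stood at 0.28 in replicate 5 and 0.43 in replicate 6. Chromosome 7 was low in replicate 6 (−0.25) and near 0 in replicate 5 (−0.04), and its median was −0.05 without replicate 6 and −0.27 without replicate 5. Between replicates 3 and 4 no chromosome median went beyond −0.055 or 0.035. Without the 3 libraries over 40% ribosomal RNA the medians were 0.39, 0.31 and 0.27 for chromosomes 18, 13 and 12. Of the genes named above, Lox, Pdgfrb, Cidea, Kif20a, Lmnb1 and Cd14 are on chromosome 18, Vcan, Fst and Sox4 on chromosome 13, and Serpina3n, Foxn3 and Ifi27 on chromosome 12. On the chromosomes with lower medians are Rtp4, Mx2 and Adipoq (chromosome 16), Bst2, Ucp1, Col4a1, Mt1 and Mt2 (chromosome 8), and Bnip3, Ldha, Nupr1, Pde3b, Thrsp and Tnfrsf23 (chromosome 7), of which Pde3b, Thrsp, Tnfrsf23, Col4a1, Mt1 and Mt2 had positive differences. What the shift of a whole chromosome contributed to their differences was not tested. The chromosome medians were looked at after the set differences had been seen.

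**Figure D5:**
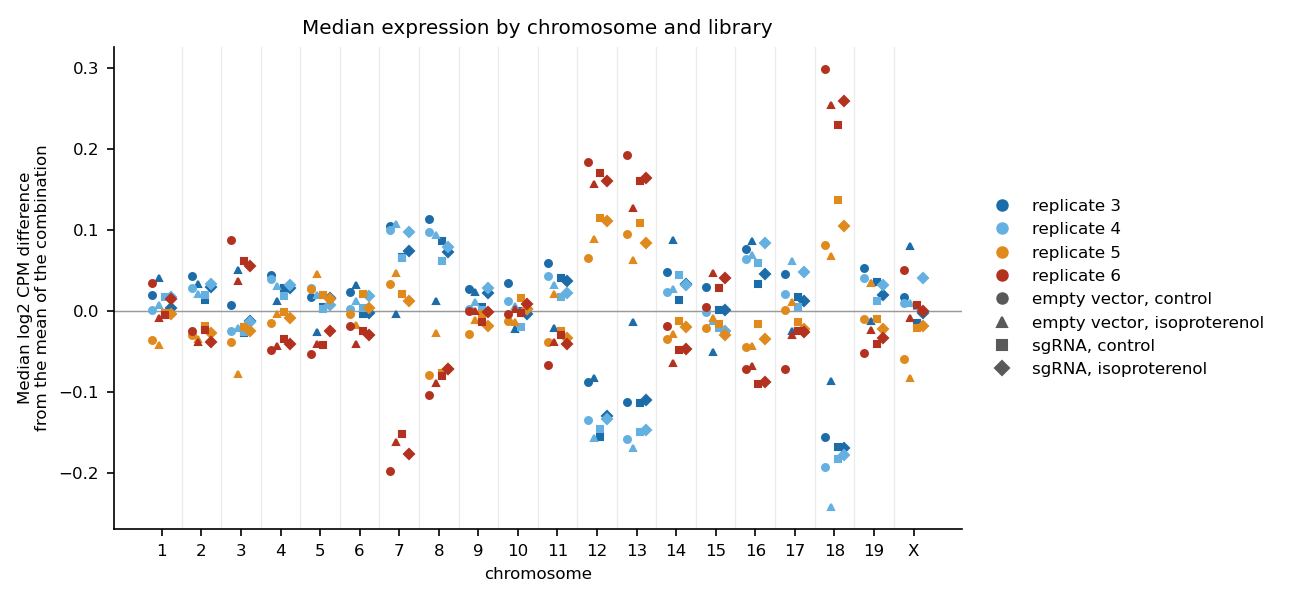
Median log2 CPM difference of each library from the mean of its combination, by chromosome, for genes with a mean of at least 5 CPM; colours mark the replicate number and shapes the combination. Replicates 5 and 6 lie above replicates 3 and 4 on chromosomes 12, 13 and 18 in each combination, and replicate 6 alone lies low on chromosome 7.

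Genes passed the test for a response to isoproterenol in both sets, and among the genes that passed the filter on low counts no difference in response between the sets passed. In replicates 3 and 4, 281 of 13150 genes passed an adjusted p of 0.05 and a log2 fold change of 0.5 (2.14%; 139 rose, 1.06%, and 142 fell, 1.08%), and in replicates 5 and 6, 193 passed (1.47%; 108 rose, 0.821%, and 85 fell, 0.646%). Of these, 126 passed in both sets (44.8% of the first and 65.3% of the second count) and all 126 moved in the same direction. DESeq2 called 310 genes in replicates 5 and 6, against the 193 of edgeR. The test of the difference itself, the interaction of isoproterenol and set in edgeR's quasi-likelihood model, called 0 genes, with 655 at an unadjusted p under 0.05 and a smallest adjusted p of 0.911, and DESeq2 also called 0. It called 1 gene without replicate 6, 1 without stimulated sgRNA 6, and 82 when no filter on low counts was applied. With a block for the replicate number, 710 and 545 genes passed in the sets (5.40 and 4.14%) and the interaction again called 0 genes (1506 at an unadjusted p under 0.05, smallest adjusted p of 0.133). When a replicate number was left out, its set held 1 library in each combination and was assumed to vary like the other set, which then gave the spread. There were 9 genes in replicates 3 and 4 without replicate 3 and 17 without replicate 4, and 559 and 564 genes there without replicates 5 and 6. In replicates 5 and 6 the count was 67 and 64 without replicates 3 and 4, and 320, 126, 111 and 123 without unstimulated empty vector 6, unstimulated empty vector 5, unstimulated sgRNA 5 and stimulated sgRNA 6, and 112 without the 3 libraries over 40% ribosomal RNA. For replicates 3 and 4 single libraries brought it to between 92 (without unstimulated sgRNA 3) and 176 (without unstimulated sgRNA 4), with 142, 131, 152, 148 and 109 without unstimulated empty vector 3, stimulated empty vector 3, stimulated sgRNA 3, unstimulated empty vector 4 and stimulated sgRNA 4.

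Ucp1 and a part of the β-adrenergic and brown fat genes rose in each set. Ucp1 lay between 0.263 and 0.979 CPM in unstimulated and between 4.37 and 10.0 CPM in stimulated libraries of replicates 3 and 4, and between 0 and 0.456 and between 4.45 and 15.5 CPM in replicates 5 and 6. Its log2 fold change was 3.5 (SE 0.46, adjusted p = 0.00188) and 4.81 (SE 0.54, adjusted p = 0.000574), and the difference of 1.31 (SE 0.78) had an adjusted p of 0.911. In replicates 3 and 4, Ucp1 did not pass without replicate 3 or without replicate 4 (adjusted p = 0.265 and 0.176 in edgeR, with fold changes of 3.73 and 3.42). Of 21 β-adrenergic genes, 8 rose in replicates 3 and 4 and 8 in replicates 5 and 6, and none fell in either. Of all genes tested, 1.06 and 0.821% rose. The β-adrenergic genes that rose included Nr4a1, an immediate early nuclear receptor (2.27 and 2.19), and Pde4d, a cAMP phosphodiesterase (1.09 and 1.55). Of 22 brown fat genes, 3 rose and 1 fell in replicates 3 and 4, and 4 rose and none fell in replicates 5 and 6 (with the replicate block, 5 rose and 1 fell, and 7 rose and none fell). Adipoq fell by 0.94 (SE 0.18, adjusted p = 0.0145) in replicates 3 and 4 and by 1.23 (SE 0.18, adjusted p = 0.00302) in replicates 5 and 6. Its call in replicates 3 and 4 was lost in 5 of 20 omissions of a culture or library, namely without replicate 3, replicate 4, unstimulated empty vector 3, unstimulated sgRNA 3 and stimulated sgRNA 4 (adjusted p in edgeR of 0.576, 0.274, 0.0696, 0.0768 and 0.0823), while the fold change stayed between −1.06 and −0.82 over all 20. Of 24 cholesterol synthesis genes, 7 and 4 fell, against 1.08 and 0.646% of all genes tested, and none rose. Insig1, a sensor of the pathway, fell by 1.04 and 0.82.

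Some of the genes that differed between the sets passed the test for isoproterenol. Slpi rose by 2.80 (SE 0.26, adjusted p = 0.000142) in replicates 3 and 4, where it was high, and by 1.83 (SE 0.33, adjusted p = 0.0149) in replicates 5 and 6. Abcd2 fell by 0.68 (SE 0.11, adjusted p = 0.00621) and by 0.91 (SE 0.13, adjusted p = 0.00259), and Fkbp5, which was high in replicates 5 and 6, fell by 0.60 (SE 0.08, adjusted p = 0.00239) and by 0.68 (SE 0.08, adjusted p = 0.0009). Col6a2, a type VI collagen chain that did not part between the sets (0.04), fell by 0.96 in replicates 3 and 4 (adjusted p = 0.000544), whereas its value in replicates 5 and 6 was −0.34 (adjusted p = 0.139), and the test of the difference gave an adjusted p of 0.911 (unadjusted p = 0.00131). Among the 91 genes higher in replicates 3 and 4, 7 rose and 1 fell with isoproterenol in that set (8.79%, against 2.14% of all genes), and 5 rose and 1 fell in replicates 5 and 6 (6.59%, against 1.47%). Among the 255 genes higher in replicates 5 and 6, 5 rose and 6 fell in replicates 3 and 4 (4.31%) and 6 rose and 6 fell in replicates 5 and 6 (4.71%). The replicate block turned the order of these shares. With it, 13 of the 91 rose and 2 fell in replicates 3 and 4 (16.5%, against 5.40% of all genes) and 5 rose and 6 fell in replicates 5 and 6 (12.1%, against 4.14%), while 25 of the 255 rose and 24 fell (19.2%) and 23 rose and 25 fell (18.8%). Among genes that reached the count filter in both sets, a restriction chosen after seeing the data, the shares were 10.8 and 9.23% of the 65, 6.33 and 6.33% of the 158, and 2.25 and 1.53% of all 12050 such genes, and with the block 21.5 and 16.9%, 29.1 and 26.6%, and 5.62 and 4.29%.

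Among the genes that passed the filter on low counts, the sgRNA plasmids changed 0 past the threshold in either set in edgeR. In replicates 3 and 4, 297 genes had an unadjusted p under 0.05 in edgeR, and in replicates 5 and 6, 718. DESeq2 called 11 and 8. The interaction of the plasmids with the set also called 0 genes (227 at an unadjusted p under 0.05, 2 called by DESeq2). Without that filter, 111 and 229 genes passed and the interaction called 82. Counts with libraries left out are given in the last section. With the replicate block, 19 and 13 genes passed (0.144 and 0.0989%), of which 7 were shared. Gm15551 was at 1.08, 0, 0.985 and 0.166 CPM with empty vector and 3.92, 2.04, 3.19 and 1.47 CPM with sgRNA in replicates 3 and 4, and at 0.390, 0, 1.35 and 0.421 CPM and 1.42, 1.04, 3.34 and 1.69 CPM in replicates 5 and 6. In both sets each sgRNA library lay above the empty vector library of the same number and treatment. The log2 fold changes were 2.81 (SE 0.56, adjusted p = 0.364) and 1.92 (SE 0.56, adjusted p = 0.908), and neither passed. In the blocked fit the value in replicates 3 and 4 was 2.78 (adjusted p = 0.0168) and passed, and that in replicates 5 and 6 was 2.04 (adjusted p = 0.144) and did not. The value in replicates 3 and 4 also passed without replicate 5 (adjusted p = 0.0472 in edgeR), in DESeq2 (adjusted p = 0.00981) and without a filter on low counts (adjusted p = 6.39e-08 in edgeR), and that in replicates 5 and 6 passed without the filter (adjusted p = 0.000949 in edgeR).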

How the data were processed

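Poly(A) RNA of 16 cultures was sequenced, and the deposited table holds estimated counts per gene that the authors obtained with Salmon after cutadapt trimming (GRCm38); they were rounded to whole counts. Of 54347 genes, 13150 passed filterByExpr (minimum count 10, total 15). Set differences and tests came from quasi-likelihood fits in edgeR 4.0.16 (R 4.3.3) with TMM scaling and Benjamini-Hochberg adjustment; alternatives included DESeq2 1.42.0. Ribosomal RNA stayed in the library sizes. CPM values allow no reading below 3 counts, and intervals on shares cover counting error only. With ribosomal RNA left out of the total, 3 counts are 0.231 to 0.508 CPM by library. Summed marker levels use that total. CPM of single genes use TMM-scaled library sizes that include ribosomal RNA, so this range does not apply to them directly. Same-numbered libraries deviated together (every r at least 0.224), so the numbers pair the libraries, from these values and not from the labels. Sets, lists, and the chromosome view were chosen with earlier results of these data known. Named genes were, per list, up to 4 tested members with the highest mean CPM and up to 4 with the largest set difference, the 12 largest separated genes per direction at a mean of at least 5 CPM, and Gm15551, Ucp1, Adipoq, Pparg and Fabp4. Some genes that this rule names are not reported here. Other names were chosen after their values were seen. Scripts were tested on simulated data.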

Additional observations from a re-analysis of the deposited data

Results flagged for a closer look

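In 424 groups of 4 libraries of 1 combination, the highest or lowest library stood apart from the others in 43, in 24 genes and list means. Chance marks about 1 in 20 groups of unselected, independent values, and this rate does not apply here, since many of the genes were named for their set difference or share a list. Replicate 6 was the highest library in 33 of these, replicates 4 and 5 in 4 each and replicate 3 in 2.

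Replicate 6 stood apart in the following, in CPM. In unstimulated empty vector cultures it held 10.1 of Adamts2, 23.7 of C4b, 31.2 of Cd24a, 53.2 of Clca3a1, 12.5 of Fbn1, 47.4 of Fn1, 94.6 of Lox, 164 of Serpina3n, 7.58 of Tgfbi and 272 of Top2a. In stimulated empty vector cultures it held 20.7 of C4b, 15.6 of Clca3a1, 72.3 of Lox and 107 of Serpina3n. In unstimulated sgRNA cultures it held 26.7 of Acta2, 26.1 of Cd24a, 34.5 of Clca3a1, 33.7 of Fn1, 76.6 of Lox and 55.3 of Serpina3n. In stimulated sgRNA cultures it held 16.7 of Acta2, 10.7 of Adamts2, 14.3 of Clca3a1, 31.9 of Col1a2, 9.25 of Fbn1, 8.47 of Pdgfrb and 48.2 of Serpina3n. Mean log2 CPM of the inflammation list was 3.98 in unstimulated empty vector and 3.52 in unstimulated sgRNA cultures of replicate 6, that of the matrix enzyme list was 3.00 in stimulated empty vector cultures, and that of the progenitor list was 2.97, 3.06 and 3.01 in unstimulated empty vector, stimulated empty vector and stimulated sgRNA cultures.

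Replicate 5 stood apart with 105 CPM of C3 and 714 CPM of Col4a1 in stimulated sgRNA cultures, 853 CPM of Col4a1 in unstimulated sgRNA cultures and a mean log2 CPM of 7.74 for the adipocyte list in stimulated empty vector cultures. In stimulated sgRNA cultures replicate 4 held 312 CPM of Ifi27, 2150 CPM of Pgk1, 27.8 CPM of Rtp4 and 1.58 CPM of Tnfaip6. In unstimulated empty vector cultures replicate 3 held 4.63 CPM of Mx2 and 23.0 CPM of Rtp4. The cause of these values was not tested.

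Of 208 isoproterenol and sgRNA effects compared, that of isoproterenol on Pcna went in opposite directions in all libraries, with a mean log2 effect of 0.15 in replicates 3 and 4 and −0.14 in replicates 5 and 6. The interaction in edgeR was −0.29 (SE 0.11, unadjusted p = 0.0194, adjusted p = 0.911) and did not pass.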

How the results depend on the processing

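Depth limits the genes near the floor of 3 counts, and the rounding of estimated counts adds to this. DESeq2 size factors kept each count and median above within 1.5 times or within the spread between combinations, as did removal of the ribosomal RNA gene for the set differences, except that the median of all genes went from 0.011 to 0.016. Of 2548 alternative values for 85 genes, 2502 kept their sign.

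With a bound of 0.5 on the log2 difference, 411 and 606 genes were separated with higher levels in replicates 3 and 4 and in replicates 5 and 6. Within single combinations, where fewer libraries have to part, the 2 counts were 246 and 781 (unstimulated empty vector), 307 and 577 (stimulated empty vector), 215 and 456 (unstimulated sgRNA) and 240 and 602 (stimulated sgRNA). List medians there were 0.026 (adipocyte), 0.182 (brown fat), 0.023 (collagen) and −0.442 (interferon) in unstimulated empty vector, 0.208 (adipocyte), 0.66 (collagen), −0.169 (inflammation) and 0.089 (cell cycle) in stimulated empty vector, 0.489 (matrix glycoprotein) and 0.024 (matrix enzyme) in unstimulated sgRNA and 0.437 (brown fat) and 0.246 (progenitor) in stimulated sgRNA cultures.

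The replicate block gave 710 and 545 isoproterenol genes and 19 and 13 sgRNA genes in the sets and kept both interactions at 0. Without a filter on low counts the isoproterenol and sgRNA interactions called 82 and 82 genes, isoproterenol 782 and 623, sgRNA 111 and 229, and the cell cycle median was 0.089. With the ribosomal RNA share as covariate, the medians were 0.012 (adipocyte), 0.149 (brown fat) and 0.198 (cell cycle), and sgRNA called 3 and 1 genes. Without the 3 libraries over 40% ribosomal RNA, chosen after seeing the data, 421 genes were higher in replicates 5 and 6, the medians were −0.096 (adipocyte, reversed), 0.847 (matrix glycoprotein) and 0.078 (matrix enzyme), the sgRNA interaction called 1 gene, isoproterenol 112 in replicates 5 and 6, and sgRNA 4 and 3. DESeq2 called 2 genes for the sgRNA interaction, 310 for isoproterenol in replicates 5 and 6 and 11 and 8 for sgRNA. The causes were not tested.

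Leaving out 1 replicate number or library gave 90 to 195 genes higher in replicates 3 and 4 and 258 to 595 higher in replicates 5 and 6. Medians ranged from −0.229 to 0.367 (adipocyte), −0.07 to 0.551 (brown fat), 0.035 to 0.551 (progenitor), 0.246 to 0.413 (collagen), 0.378 to 0.859 (matrix glycoprotein), −0.196 to 0.258 (matrix enzyme), −0.308 to 0.079 (inflammation), −1.279 to −0.638 (interferon) and 0.055 to 0.223 (cell cycle). The interactions called 0 to 1 (isoproterenol) and 0 to 11 genes (sgRNA, the highest without replicate 6), isoproterenol 9 to 564 and 64 to 320, and sgRNA 0 to 8 and 0 to 21. Signs turned for the following and for some further genes. Without replicate 5 these were adipocyte (−0.229), brown fat (−0.07), all genes (−0.009), Col4a1 (−0.024), Cdkn1a (−0.12) and Gm15551 (0.195). Without replicate 6 these were matrix enzyme (−0.196), contractile genes (−0.076), all genes (−0.006), inflammation (−0.308) and Ly6a (−1.958). Over the same omissions the highest values were 0.254 for contractile genes, 0.018 for all genes and 0.751 for Col4a1.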
